A study of Mus musculus with 30 samples.

Results

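The Krüppel-like factors (Klf) are a family of zinc finger transcription factors, and 9 of them, Klf2, Klf3, Klf4, Klf5, Klf6, Klf7, Klf9, Klf13 and Tieg3 (the older name of Klf11), were followed through the stress response of mouse embryonic fibroblasts (MEFs). Members were the non-control probes whose gene name in the array files was one of these symbols. By name this gave 14 probes of 8 genes, because the files call Klf9 by its older name Bteb1. The 2 Bteb1 probes were added through their transcript accession, so that 16 probes of 9 genes were described, of the 41174 probes and 21689 named genes on the array.

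The cells were immortalised MEFs, growing exponentially, that were either wild type or lacked p38α, the stress-activated kinase that the gene Mapk14 encodes. Wild type MEFs were exposed for 45 min to anisomycin, an inhibitor of protein synthesis (25 ng/ml), or to TNFα, an inflammatory cytokine (100 ng/ml), or were shocked osmotically with 100 mM NaCl for 45 min, 2 h or 8 h. Every stress was applied with and without SB203580, an inhibitor of the kinases p38α and p38β (10 μM from 30 min before the stress), and 1 further wild type group received SB203580 with no stress. The sample titles give 2 h for that group. As the only unstressed group with SB203580, it was not matched to each stress for time in the inhibitor. For p38α-/- MEFs there were 4 groups, untreated cells, anisomycin and TNFα for 45 min, and NaCl for 2 h, with no group at 45 min or 8 h of NaCl. Each of these 15 groups was measured on 2 arrays from independent experiments, with the treated cells in the dye Cy5 and always the same pool of 2 untreated wild type cultures in the dye Cy3. No array had the dyes swapped, so that a probe's dye bias stays in its ratio to the pool, and the untreated wild type cells had no arrays of their own. The design asks which genes each stress changes and how much of that change is lost without p38 activity.

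Klf proteins bind GC-rich and CACCC sequences through zinc fingers at their carboxyl end, whereas the rest of the protein differs between members and recruits either activators or corepressors. Klf2, Klf4, Klf5, Klf6 and Klf7 are mainly known as activators in many tissues, Klf3 as a repressor that binds the corepressor CtBP, and Klf9, Klf11 and Klf13 as members that bind the corepressor Sin3. Several Klf genes are transcribed within minutes of a growth factor or a stress, and Klf2 and Klf4 are known targets of the kinase Erk5 (gene Mapk7) through the MEF2 factors.

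All values are log2 ratios of the treated cells to the pool, so that 0 stands for the untreated wild type cells only as far as the probe has no dye bias. "Rose" and "fell" are written of ratios to the pool, or of differences, that passed the test. Across the arrays, 81.1 to 96.8% of spots were well above background in Cy5 and 6.78 to 44.8% were marked by the scanner software as feature outliers, which were left out of the tests. The probe of Mapk14 lay between 0.03 and 1.31 on the 22 arrays of wild type MEFs and between -2.24 and -0.94 on the 8 arrays of p38α-/- MEFs, with no overlap. Of the fixed markers, 7 of 7 fibroblast, 3 to 4 of 4 endothelial, 4 of 4 leukocyte and 4 of 4 epithelial genes were above background in Cy5, and none of them was at background on every array. Their part in the results was not tested. In a bulk sample, fewer cells of a type and less RNA per cell cannot be told apart.

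Of the 16 member probes, 15 were well above background on all 30 arrays in both dyes and none of 480 member spots was saturated. The scanner software marked 106 of the 480 spots as outliers, and 5 probes had no such spot. Such marks were common among all bright probes, at 45.5% of spots in the brightest decile of probes against 0.151% in the dimmest, and the arrays of a group differed by a median of 0.167 where spots were marked and of 0.218 where they were not. These gaps were not matched for brightness, so they do not show how reliable a marked spot is. The main values that the marks took out of a test are also given with these spots kept.

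The start regions of 8 members were found in RefSeq on the mouse build GRCm38.p6 (250 bases before to 50 after the start), and those of the 5 members with the largest ratios are shown because they differ in the sites that known stress-activated factors bind. Capitals mark, on either strand, the core TGACG of the cAMP response element, the AP-1 site TGANTCA, the EGR site GCGNGGGCG, the MEF2 site and the CArG box of serum response factor.
Klf4, chr4:55532426-55532725, minus strand: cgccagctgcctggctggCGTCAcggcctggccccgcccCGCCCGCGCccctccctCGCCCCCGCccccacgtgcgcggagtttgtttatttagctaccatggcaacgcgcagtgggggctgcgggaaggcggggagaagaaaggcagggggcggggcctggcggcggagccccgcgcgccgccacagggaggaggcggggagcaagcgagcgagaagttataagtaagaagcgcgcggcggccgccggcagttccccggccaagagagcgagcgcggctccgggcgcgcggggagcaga
Klf2, chr8:72318812-72319111, plus strand: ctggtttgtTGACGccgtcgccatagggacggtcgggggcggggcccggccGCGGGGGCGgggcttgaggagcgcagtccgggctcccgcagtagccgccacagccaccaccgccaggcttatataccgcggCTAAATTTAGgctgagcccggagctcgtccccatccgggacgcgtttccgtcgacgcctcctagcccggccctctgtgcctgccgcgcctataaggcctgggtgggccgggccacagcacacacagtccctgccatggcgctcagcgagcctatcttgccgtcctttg
Klf6, chr13:5861239-5861538, plus strand: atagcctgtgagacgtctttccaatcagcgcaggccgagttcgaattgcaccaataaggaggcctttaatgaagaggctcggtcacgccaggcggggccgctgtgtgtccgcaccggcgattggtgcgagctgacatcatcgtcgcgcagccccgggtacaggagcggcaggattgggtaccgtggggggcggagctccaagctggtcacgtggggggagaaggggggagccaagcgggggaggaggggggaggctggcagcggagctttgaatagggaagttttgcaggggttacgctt
Klf9, chr19:23140976-23141275, plus strand: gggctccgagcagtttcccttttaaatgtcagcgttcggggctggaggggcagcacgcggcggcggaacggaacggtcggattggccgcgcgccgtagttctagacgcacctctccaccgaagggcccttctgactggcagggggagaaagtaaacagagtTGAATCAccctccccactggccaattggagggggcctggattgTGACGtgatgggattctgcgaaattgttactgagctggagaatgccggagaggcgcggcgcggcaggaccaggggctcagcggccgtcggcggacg
Klf11 (Tieg3), chr12:24651121-24651420, plus strand: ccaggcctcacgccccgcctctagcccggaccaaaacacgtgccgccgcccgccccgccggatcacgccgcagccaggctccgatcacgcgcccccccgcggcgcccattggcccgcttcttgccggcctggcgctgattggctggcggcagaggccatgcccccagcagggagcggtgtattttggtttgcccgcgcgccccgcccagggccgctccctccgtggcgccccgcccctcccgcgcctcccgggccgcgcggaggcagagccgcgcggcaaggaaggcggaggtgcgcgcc
The core TGACG was present in 5 of 8 member regions (Klf2, Klf3, Klf4, Klf9 and Klf13) against 20.8% of the 32851 regions in the table, and the EGR site in 3 (Klf2, Klf3 and Klf4) against 5.55%. The AP-1 site was found in Klf9 alone (7.81% of all regions), at bases -89 to -83, and the MEF2 site in Klf2 alone (0.557%), at bases -118 to -109. No member held the CArG box (1.63%). The GC box GGGCGG, which in part overlaps the EGR sites and was left in lower case, was present in 7 of 8 (35.7%), and the E-box CACGTG in Klf4, Klf6 and Klf11 (7.15%). The box CCAAT was present in Klf6, Klf9, Klf11 and Klf13 (37.4%) and TATAAA in none (13.6%). A match describes the letters of a short window, not a bound site.

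In wild type MEFs the members moved mainly upward. With anisomycin 5 of the 8 member probes that could be tested rose and none fell, in 5 genes (Klf2, Klf4, Klf7, Klf9 and Klf11), against 13.4% of all 26574 probes tested by limma at an adjusted p below 0.05. TNFα gave 3 probes that rose and 1 that fell of 10 (13.2% of all probes), and NaCl at 45 min 2 that rose and 1 that fell of 8 (11.8%). At 2 h of NaCl 5 of 12 rose, in 4 genes, with none lower (12.5%), and at 8 h 4 rose and 1 fell of 12 (20.6%). The median log2 ratio of the tested member probes was 1.04 with anisomycin, where the median of all probes was 0.01. In the other 4 stresses it was 0.34, 0.20, 0.20 and 0.31, where that of all probes lay between 0.00 and 0.01. The anisomycin median leaves out the member probes with marked spots. With all spots kept, those were at -0.39 (Klf2), -0.38 (Klf7), -0.13 (Klf9), -0.10 (Klf5) and 0.04 (Klf13). The remaining ones were at 0.44 and 0.54 (Klf3) and 1.05 (Klf6). With the outlier-marked spots kept, 10 of 16 member probes were called with anisomycin against 24.1% of all probes. Of these, 8 were higher and 2 lower, Klf2 probe A_52_P442031 (-0.39, adjusted p = 0.0262) and Klf7 probe A_51_P405280 (-0.38, adjusted p = 0.0136), both opposite to the other probe of the gene.

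Of 67 calls among the members over all 44 comparisons, 10 held when either array of a group was left out, and all 10 were ratios to the pool (of 55 such calls). They were Klf4 with NaCl at 8 h in wild type MEFs, at 2 h after SB203580 and at 2 h in p38α-/- MEFs, Klf6 in p38α-/- MEFs under either anisomycin or NaCl, Klf9 and Klf11 with anisomycin in wild type MEFs, Klf11 and Klf3 with NaCl at 8 h, and Klf2 with anisomycin in p38α-/- MEFs. Replicate 1 was also the higher array for Klf4 in 11 of 11 wild type groups (by a median of 0.65), for Klf2 in 10 and for Klf9 in 9 of 11. The first arrays of the wild type groups shared 1 scan batch and their second arrays a different one, so that replicate and scan batch cannot be told apart there, and each array's value given here is also a value within a batch.

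Klf4 (chr4:55527137-55532475 on GRCm38.p6, 1 probe), which restrains cell division and is used to reprogram fibroblasts, rose in 4 of the 5 stresses. Its log2 ratios on replicates 1 and 2 were 2.51 and 1.20 with anisomycin, 1.78 and 0.68 with NaCl at 45 min, 2.73 and 1.83 at 2 h, and 2.32 and 1.83 at 8 h. With TNFα they were 0.88 and 0.23. The NaCl arrays at 2 h and 8 h overlapped each other and lay above both TNFα arrays, and both values at 45 min lay between 0 and the lower array at 2 h. The mean was 2.28 ± 0.37 (SE from limma, n = 2 arrays) with NaCl at 2 h, or 4.86-fold (adjusted p = 5.5e-04), and 2.07 ± 0.37 at 8 h, or 4.21-fold (adjusted p = 4.9e-04). Anisomycin gave 1.85 ± 0.37, or 3.61-fold (adjusted p = 0.00333), NaCl at 45 min 1.23 ± 0.37, or 2.35-fold (adjusted p = 0.0363), and TNFα 0.56 ± 0.37 (adjusted p = 0.346). Without replicate 1 the anisomycin value was 1.20 (adjusted p = 0.25), the value at 45 min 0.68 (adjusted p = 0.628) and that at 2 h 1.83 (adjusted p = 0.0783). Without replicate 2 the value at 45 min was 1.78 (adjusted p = 0.0529).

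The largest Klf4 ratios came from p38α-/- MEFs, with 2.84 and 3.22 after 2 h of NaCl, a mean of 3.03 ± 0.37 or 8.19-fold (adjusted p = 2.8e-05). Both arrays lay above the 2 wild type arrays at 2 h. From there on each group overlapped the next in the order of the means, which ran through NaCl at 2 h and 8 h in wild type MEFs, SB203580 with NaCl at 2 h (2.19 and 1.89), anisomycin, SB203580 with NaCl at 8 h (1.74 and 1.69), anisomycin in p38α-/- MEFs (1.90 and 1.09) and NaCl at 45 min. The lower end held SB203580 with no stress (0.79 and 0.08), SB203580 with TNFα (0.66 and 0.24) and SB203580 with anisomycin (0.96 and 0.07), which overlapped. Untreated p38α-/- MEFs were themselves at 1.34 and 0.29, a mean of 0.82 ± 0.37 (adjusted p = 0.148, and 0.0142 with a block for the replicate number).

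Klf6 (chr13:5861489-5870393), an activator of the growth inhibitor gene Cdkn1a that is induced early after injury, rose with NaCl at 2 h. Its single probe read 1.38 and 0.91 at 2 h, -0.54 and -0.15 at 8 h, and 0.49 and -0.18 at 45 min, the last of these on an outlier-marked spot. Both arrays at 2 h lay above all arrays at 45 min and at 8 h. The mean at 2 h was 1.14 ± 0.20 (SE, n = 2), or 2.21-fold (adjusted p = 0.00498), and 0.91 without replicate 1 (adjusted p = 0.169), while that at 8 h was -0.34 ± 0.20 (adjusted p = 0.274). With anisomycin both Klf6 spots (1.17 and 0.92) were outlier-marked and were left out of the test, and with these spots kept the mean was 1.05 ± 0.21 (adjusted p = 0.00162). With TNFα the values were 0.69 and 0.51, and 0.60 ± 0.21 with the marked spot kept (adjusted p = 0.0494). In p38α-/- MEFs Klf6 rose with anisomycin (1.81 and 1.23, a mean of 1.52 ± 0.20 or 2.87-fold, adjusted p = 0.0011) and with NaCl at 2 h (1.68 on both arrays, 3.2-fold, adjusted p = 3.9e-04).

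Of the Sin3-binding members, Klf9 (chr19:23141226-23168129), also a known glucocorticoid target, rose in 3 of the 5 stresses on probe A_51_P412200. Its arrays read 1.92 and 1.36 with anisomycin, 1.59 and 0.75 with NaCl at 2 h, 0.87 and 0.89 at 8 h, 0.72 and 0.41 with TNFα, and 0.51 and -0.26 with NaCl at 45 min. Both anisomycin arrays lay above both arrays of TNFα and of NaCl at 45 min, and the 2 h and 8 h arrays overlapped. The mean with anisomycin was 1.64 ± 0.21 (SE, n = 2), or 3.12-fold (adjusted p = 1.3e-04), with NaCl at 2 h 1.17 ± 0.21, or 2.25-fold (adjusted p = 0.00144), and at 8 h 0.88 ± 0.21, or 1.84-fold (adjusted p = 0.00559). The call at 2 h was lost without replicate 1 (0.75, adjusted p = 0.207) and that at 8 h without either array (adjusted p = 0.0711 and 0.09). TNFα gave 0.57 ± 0.21, with an adjusted p of 0.0855 that became 0.0200 with the replicate block. The other Klf9 probe, A_52_P675996, lay between -0.73 and 0.11 on all 30 arrays, so that the probes of this gene disagreed.

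Klf11 (chr12:24651371-24662782), a growth-inhibiting factor induced early by TGFβ, rose in 2 wild type stresses and fell in another. Probe A_51_P205820 read 1.78 and 1.32 in the anisomycin group, 0.51 and 0.91 in the TNFα group, 0.15 and 0.08 with NaCl at 45 min, 0.21 and -0.25 at 2 h, and -1.37 and -1.10 at 8 h. The anisomycin, TNFα and NaCl arrays at 45 min did not overlap, and both arrays at 8 h were below all the others of this probe. It rose by 1.55 ± 0.21 (SE, n = 2) with anisomycin, or 2.93-fold (adjusted p = 2.2e-04), and by 0.71 ± 0.21 with TNFα, or 1.64-fold (adjusted p = 0.0348, lost without either array). At 8 h of NaCl it was at -1.24 ± 0.21, or 2.36-fold lower (adjusted p = 4.0e-04). The second Klf11 probe, A_52_P474002, was well above background in Cy5 on 16 of 30 arrays, ranged from -1.66 to 1.14, and was lower on replicate 1 in 11 of 11 wild type groups. With TNFα its mean of -0.72 (adjusted p = 0.38) passed with the replicate block (adjusted p = 0.045), opposite to the first probe.

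Klf13 (chr7:63886351-63938915), the third Sin3-binding member and a regulator of the chemokine gene Ccl5 in T cells, rose at 8 h of NaCl on probe A_51_P341169, with 0.58 and 0.42 and a mean of 0.50 ± 0.11 (1.42-fold, adjusted p = 0.00348, and 0.42 with adjusted p = 0.104 without replicate 1). Its arrays at 2 h were both at -0.19, and those with TNFα at -0.18 and -0.30, below the 8 h arrays. The other probe, A_52_P281659, ranged from -0.37 to 0.28.

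Klf2 (chr8:72319062-72321654), known from endothelial cells and resting T cells, rose with anisomycin among the wild type stresses, and was also called in SB203580 and p38α-/- groups. Probe A_51_P144264 read 1.62 and 1.14 in the anisomycin group, 0.89 and 0.68 in the TNFα group, 0.95 and 0.65 with NaCl at 45 min, -0.63 and -1.04 at 2 h, and 0.21 and 0.49 at 8 h. The 3 groups at 45 min lay above 0 on every array, the 2 h arrays below 0, and the 8 h arrays between them. The anisomycin mean of 1.38 ± 0.32 (SE, n = 2), or 2.6-fold (adjusted p = 0.0092), was 1.14 without replicate 1 (adjusted p = 0.248). With TNFα, NaCl at 45 min and NaCl at 2 h the means were 0.79, 0.80 and -0.83 ± 0.32, with adjusted p = 0.112, 0.108 and 0.0953, and these passed with the replicate block (adjusted p = 0.0221, 0.0187 and 0.0180). The other Klf2 probe, A_52_P442031, lay between -0.73 and 0.23.

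Klf5 (chr14:99298691-99313412), which promotes division in epithelium and smooth muscle, had 2 probes that disagreed with TNFα. Probe A_51_P507290 read -0.46 and -0.58, a mean of -0.52 ± 0.09 (SE, n = 2) or 1.43-fold lower (adjusted p = 0.00164, and 0.081 without replicate 2), and probe A_52_P54463 read 0.29 and 0.37, a mean of 0.33 ± 0.10 or 1.26-fold higher (adjusted p = 0.0333, lost without either array). The arrays of the probes did not overlap and no direction is given for the gene there. With NaCl at 2 h both probes rose, by 0.38 ± 0.09 and 0.38 ± 0.10 (1.3-fold each, adjusted p = 0.011 and 0.0174). Both calls were lost without replicate 1 (0.29 and 0.33), and that of A_52_P54463 also without replicate 2 (0.43). Probe A_52_P54463, however, lay between -0.04 and 0.48 on all 30 arrays, stressed or not. Its mean was also above the pool with SB203580 alone (0.13) and in untreated p38α-/- MEFs (0.15). At 45 min of NaCl probe A_51_P507290 was at -0.31 (adjusted p = 0.0347), a call lost without either array (-0.28 and -0.33).

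Klf7 (chr1:64029448-64122345), known from neuronal growth, rose on probe A_52_P239424 with anisomycin (0.79 and 0.63, a mean of 0.71 ± 0.14 or 1.64-fold, adjusted p = 0.00497) and with NaCl at 45 min (0.56 and 0.42, a mean of 0.49 or 1.4-fold, adjusted p = 0.0382). Without replicate 1 the anisomycin value was 0.63 (adjusted p = 0.17), and the call at 45 min was lost without either array. The other probe, A_51_P405280, was outlier-marked on every array and lay between -0.61 and 0.10. Klf3 (chr5:64803521-64832901), the CtBP-binding repressor, rose on probe A_52_P462392 with NaCl at 8 h, where the arrays read 0.69 and 0.60 against 0.19 and -0.05 at 2 h, with no overlap. The mean at 8 h was 0.64 ± 0.10 (SE, n = 2), or 1.56-fold (adjusted p = 3.6e-04), and with TNFα 0.34 (1.27-fold, adjusted p = 0.0313). With anisomycin in wild type MEFs each Klf3 probe had 1 marked spot, and with these kept A_52_P462392 read 0.48 and 0.59 (0.54 ± 0.09, adjusted p = 4.6e-04) and A_51_P492640 0.44 and 0.43 (0.44 ± 0.15, adjusted p = 0.047). Both Klf3 probes rose with anisomycin in p38α-/- MEFs, A_52_P462392 with 0.53 and 0.72 (adjusted p = 0.00116) and A_51_P492640 with 0.99 and 0.41 (adjusted p = 0.0178).

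**Figure D1:**
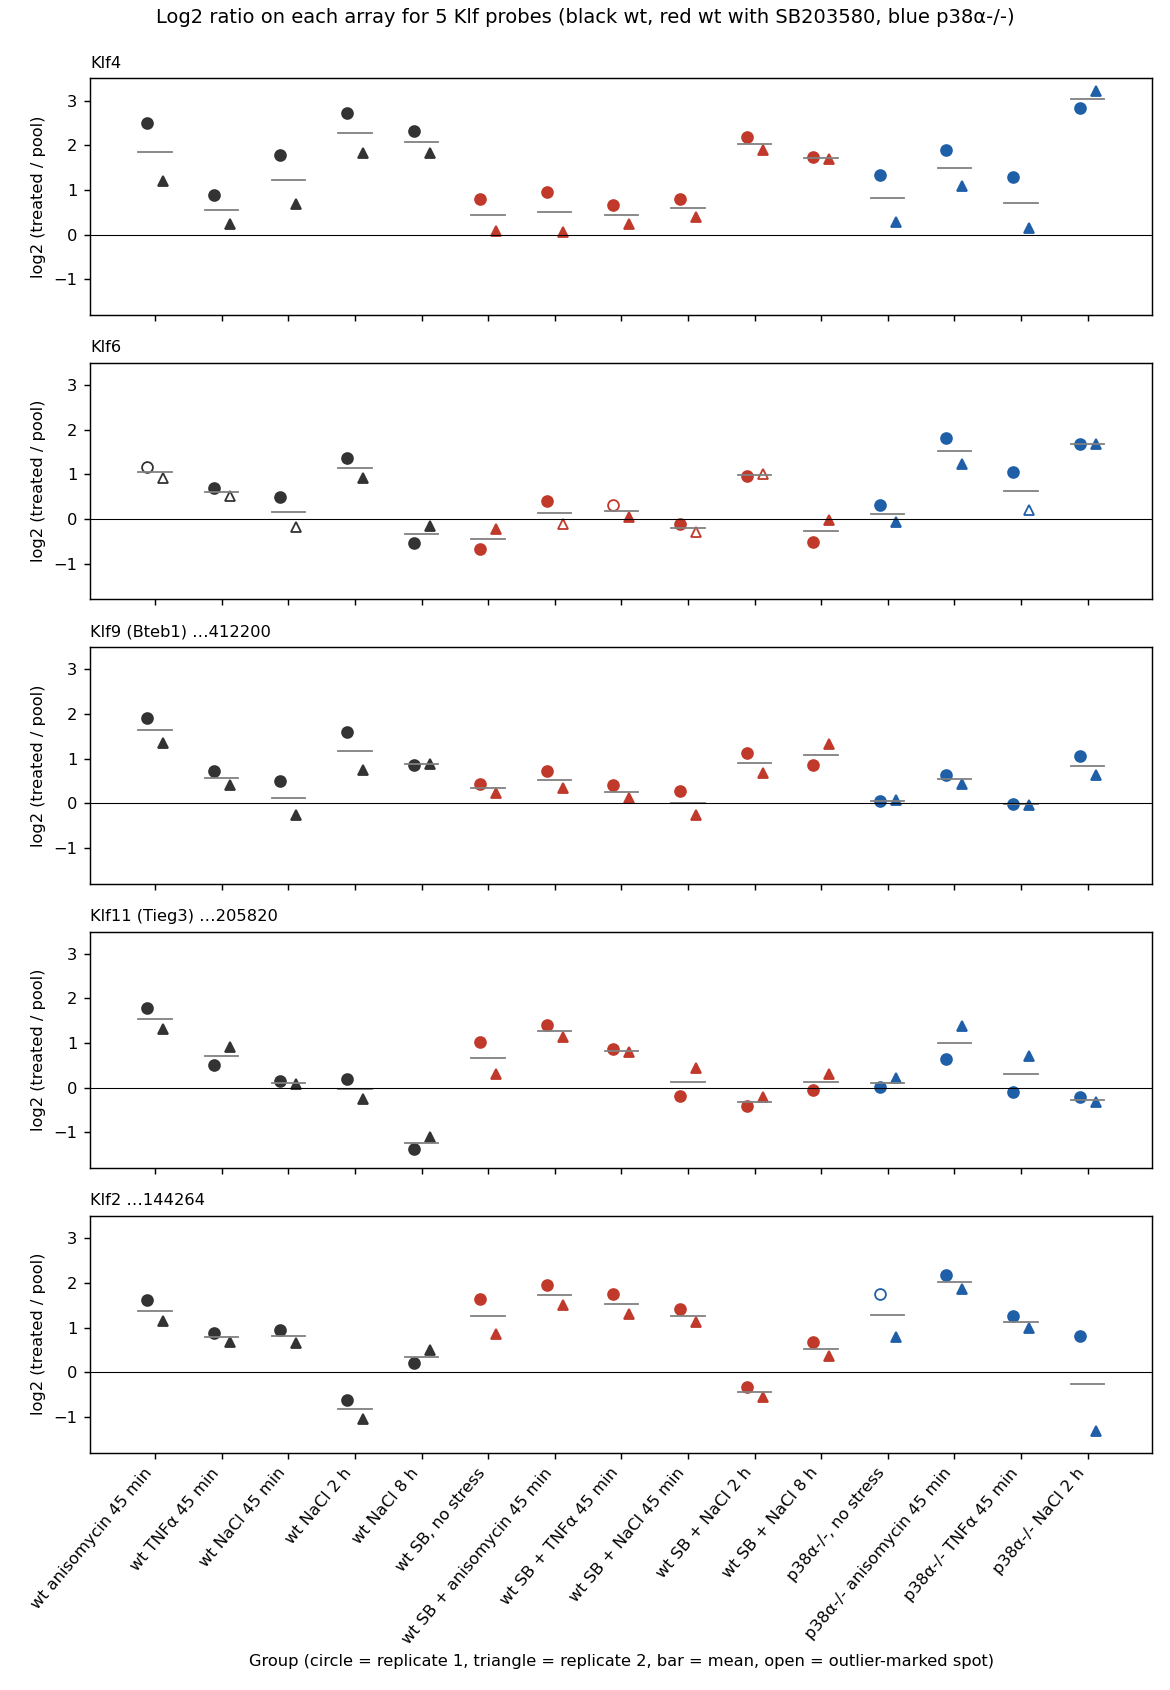
Log2 ratio to the untreated wild type pool (vertical axis) on each array of the 15 groups for 1 probe each of Klf4, Klf6, Klf9, Klf11 and Klf2, with a circle for replicate 1, a triangle for replicate 2, a bar at the mean and open symbols for outlier-marked spots (black wild type, red SB203580, blue p38α-/-). Klf11 is lowest with NaCl at 8 h (-1.37 and -1.10), where Klf4 reads 2.32 and 1.83.

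The stresses at 45 min were set against each other to ask whether the members told them apart, with the pool cancelling in the difference. Between anisomycin and NaCl 2 of 7 testable member probes differed (0.373% of all probes), A_51_P412200 of Klf9 and A_51_P205820 of Klf11. The other probes of these genes were not called. With marked spots kept, their means with anisomycin and NaCl were -0.13 and -0.34 (Klf9) and 0.08 and -0.49 (Klf11). Klf13, the third Sin3-binding member, had marked spots in these groups and was not tested. Klf9 was higher with anisomycin by 1.51 ± 0.30 (SE, n = 2 arrays per group), or 2.86-fold (adjusted p = 0.0279), and Klf11 by 1.43 ± 0.30, or 2.7-fold (adjusted p = 0.0453). Klf9 missed the threshold without replicate 1 of anisomycin (1.23, adjusted p = 0.444) or replicate 2 of NaCl (1.13, adjusted p = 0.347), and Klf11 without any 1 of the 4 arrays (1.20 to 1.66, adjusted p = 0.0844 to 0.509). Between anisomycin and TNFα none of 7 passed (0.140% of all probes, and 3 at an unadjusted p below 0.05), with Klf4 higher by 1.30 with anisomycin (adjusted p = 1). Between TNFα and NaCl none of 7 passed either (0.379%, and 0 at an unadjusted p below 0.05).

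Over the NaCl time course the members took separate paths. From 45 min to 2 h 1 of 8 testable probes changed (0.209% of all probes), Klf5 probe A_51_P507290, which was higher at 2 h by 0.68 ± 0.12 (adjusted p = 0.038, and 0.173 to 0.206 without 3 of the 4 arrays). For Klf2 the difference, 2 h minus 45 min, was -1.64 ± 0.45, with an adjusted p of 0.206 that became 0.0381 with the replicate block (SE 0.32). From 2 h to 8 h 4 of 10 changed (7.77% of all probes), with Klf3 and Klf13 higher and Klf6 and Klf11 lower. The differences, 8 h minus 2 h, were 0.57 ± 0.13 for Klf3 (adjusted p = 0.0193), 0.69 ± 0.16 for Klf13 (adjusted p = 0.0104), -1.49 ± 0.28 for Klf6 (2.81-fold, adjusted p = 0.0096) and -1.22 ± 0.30 for Klf11 (2.33-fold, adjusted p = 0.0167). For Klf3, Klf13 and Klf11 this was 1 of 2 probes. With marked spots kept, the means of the other probe at 2 h and 8 h were 0.10 and 0.48 (Klf3), 0.07 and 0.15 (Klf13) and -0.58 and -0.28 (Klf11).

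These 8 h calls leaned on single arrays in part. Klf6 missed the threshold without replicate 1 at 2 h (-1.25, adjusted p = 0.0826) or at 8 h (-1.29, adjusted p = 0.0783), Klf11 likewise (-0.99, adjusted p = 0.167, and -1.08, adjusted p = 0.136), and Klf3 without 3 of the 4 arrays (adjusted p = 0.0619 to 0.133). Klf13 missed it without replicate 1 at 2 h (0.69, adjusted p = 0.0616) or at 8 h (0.62, adjusted p = 0.0975). For Klf4 the difference between 2 h and 8 h was -0.21 (adjusted p = 0.924), and for Klf2 1.18 (adjusted p = 0.135, and 0.0248 with the replicate block).

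**Figure D2:**
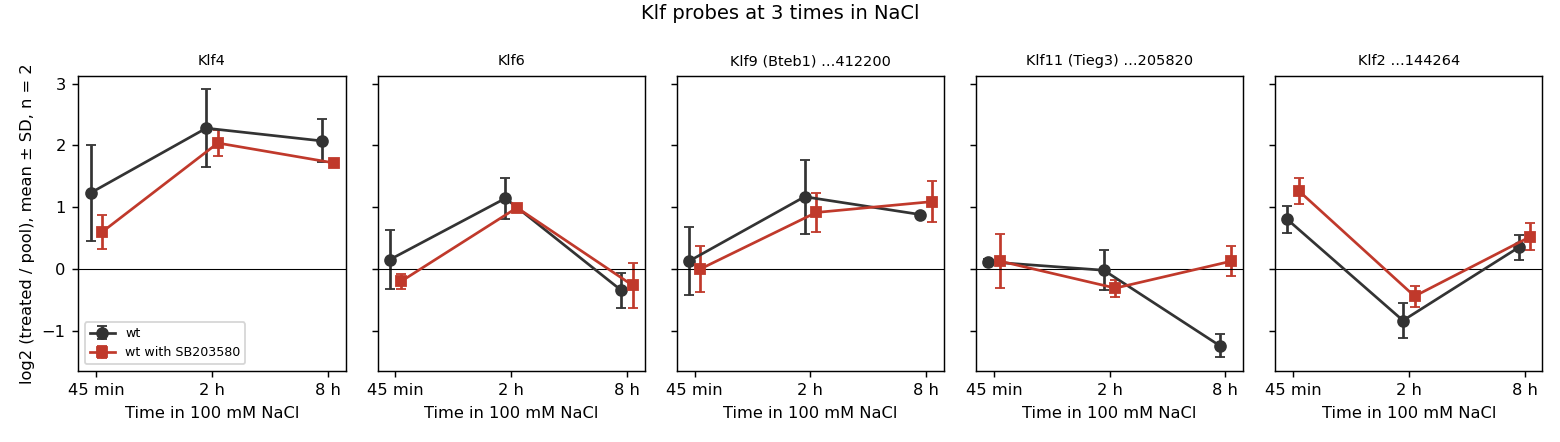
Mean log2 ratio to the untreated wild type pool ± SD (vertical axis, n = 2 arrays) at 45 min, 2 h and 8 h of NaCl for the same 5 probes, in wild type MEFs alone (black) and after SB203580 (red). Without the inhibitor Klf4 means run 1.23, 2.28 and 2.07, Klf6 is highest at 2 h (1.14), Klf2 lowest at 2 h (-0.83), and Klf11 falls to -1.24 at 8 h, where its arrays read -0.05 and 0.30 with SB203580.

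The unstressed cells of the p38-deficient arms were not at the level of the pool for every member. After SB203580 alone 2 of 11 testable probes rose (29.6% of all probes), Klf2 with 1.64 and 0.86 (1.25 ± 0.32, 2.38-fold, adjusted p = 0.00803) and Klf11 with 1.02 and 0.31 (0.67 ± 0.21, 1.59-fold, adjusted p = 0.0259). Both calls were lost without replicate 1 (Klf2 0.86, adjusted p = 0.335, and Klf11 0.31, adjusted p = 0.643). In untreated p38α-/- MEFs 1 of 10 passed (15.4% of all probes), Klf5 probe A_51_P507290 at -0.34 (1.27-fold lower, adjusted p = 0.0154), whereas Klf2 read 1.76 on an outlier-marked spot and 0.79. Responses in these arms are therefore given both against the pool and against the arm's own unstressed cells.

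Against the pool, SB203580 with anisomycin gave 2 of 9 member probes that rose (14.5% of all probes) and with TNFα 2 that rose and 1 that fell of 9 (12.1%). With NaCl after SB203580 it was 2 up and 1 down of 9 at 45 min (20.5%), 2 of 12, both up, at 2 h (20.2%) and 5 of 13, all up, at 8 h (21.0%). The p38α-/- MEFs gave 7 of 13 with anisomycin, all up (13.1%), 2 up and 1 down of 11 with TNFα (8.54%), and 5 of 12 with NaCl at 2 h, all up (19.9%). The 7 probes with anisomycin belonged to Klf2, Klf3 (both probes), Klf4, Klf6, Klf7 and Klf11, but not Klf9.

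Klf2 was called in 4 of the SB203580 groups and in 2 of the p38α-/- groups. It read 1.94 and 1.51 in SB203580 with anisomycin (1.73 ± 0.32, 3.31-fold, adjusted p = 0.00224), 1.75 and 1.31 with TNFα (1.53, 2.89-fold, adjusted p = 0.00611) and 1.41 and 1.12 with NaCl at 45 min (1.26, 2.4-fold, adjusted p = 0.0102). In p38α-/- MEFs it read 2.18 and 1.85 with anisomycin (2.01, 4.04-fold, adjusted p = 6.1e-04) and 1.25 and 0.98 with TNFα (2.17-fold, adjusted p = 0.0375). Each of these arrays lay above the 0.65 to 0.95 of wild type MEFs with TNFα or NaCl at 45 min, and the values with SB203580 overlapped those of the unstressed SB203580 cells.

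After SB203580 Klf4 rose at 2 h (2.04, 4.11-fold, adjusted p = 0.00105) and at 8 h (1.72, 3.29-fold, adjusted p = 0.00273), and so did Klf9 (0.92, adjusted p = 0.00593, and 1.09, adjusted p = 0.00126). At 8 h Klf3 (0.57, adjusted p = 0.00103) and both Klf5 probes (0.41, adjusted p = 0.00357, and 0.31, adjusted p = 0.0304) rose as well, with Klf3 arrays at 0.47 and 0.66 beside 0.69 and 0.60 without the inhibitor, which overlapped. With NaCl at 2 h in p38α-/- MEFs Klf9 (1.07 and 0.63, adjusted p = 0.00861), Klf7 (0.79 and 0.34, adjusted p = 0.0121) and Klf5 probe A_52_P54463 (0.43, adjusted p = 0.0053) rose beside Klf4 and Klf6. Without stress that Klf5 probe was itself above the pool, at a mean of 0.13 with SB203580 and 0.15 in p38α-/- MEFs.

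With anisomycin Klf11 rose after SB203580 (1.41 and 1.14, a mean of 1.27, 2.41-fold, adjusted p = 0.00111) and in p38α-/- MEFs (0.64 and 1.38, a mean of 1.01, 2.01-fold, adjusted p = 0.00478, and 0.64 with adjusted p = 0.269 without replicate 2). Klf4 rose with anisomycin in p38α-/- MEFs (1.90 and 1.09, 2.82-fold, adjusted p = 0.0116), and this was lost without either array (adjusted p = 0.201 and 0.0535). Klf5 probe A_51_P507290 was below the pool with TNFα in both arms, at -0.37 (adjusted p = 0.0133) after SB203580 and at -0.61 and -0.43 in p38α-/- MEFs (adjusted p = 0.00193). The replicate block added Klf9 with anisomycin in both arms (adjusted p = 0.0256 after SB203580 and 0.0278 in p38α-/- MEFs) and Klf4 in SB203580 with NaCl at 45 min (adjusted p = 0.0491) and in p38α-/- MEFs with TNFα (adjusted p = 0.0391).

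Whether p38 was needed was asked directly by setting SB203580 with a stress against the stress alone. No member probe passed, of 8 with anisomycin (0.0122% of all probes passed), 9 with TNFα (0%), and 8, 11 and 11 with NaCl at 45 min, 2 h and 8 h (0%, 0% and 0.164%). At an unadjusted p below 0.05 the counts were 2, 0, 0, 2 and 1. The comparison of p38α-/- with wild type MEFs under the same stress passed in none of 8 with anisomycin (1.11% of all probes), 10 with TNFα (0.385%) and 11 with NaCl at 2 h (0.611%), with 1, 0 and 1 at an unadjusted p below 0.05. With so few calls over the whole array, a member that missed the threshold was not shown to be independent of p38.

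Klf9 with anisomycin was lower in both arms on probe A_51_P412200. It read 1.92 and 1.36 in wild type MEFs, 0.73 and 0.34 after SB203580, and 0.65 and 0.43 in p38α-/- MEFs, so that both wild type arrays lay above all 4 others. The difference with SB203580 was -1.11 ± 0.30 (SE, n = 2 arrays per group), with an adjusted p of 0.967, or 0.174 with the replicate block. The p38α-/- MEFs differed by -1.10 ± 0.30 (adjusted p = 0.0935), which passed with the replicate block (SE 0.23, adjusted p = 0.0120, 4.12% of all probes called) but not with a block for the scan day (-0.82, adjusted p = 0.147). Within the scan batch that held both genotypes the wild type array read 1.36 and the p38α-/- array 0.65. The other Klf9 probe, A_52_P675996, was not above the pool with anisomycin in any arm. With marked spots kept its means were -0.13 in wild type MEFs, -0.23 after SB203580 and -0.28 in p38α-/- MEFs.

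Klf4 with anisomycin read 2.51 and 1.20 alone and 0.96 and 0.07 after SB203580, lower within each replicate number, and the arrays of the groups did not overlap. The difference was -1.34 ± 0.52 (adjusted p = 1, and 0.299 with the replicate block). The values in p38α-/- MEFs, 1.90 and 1.09, overlapped those of wild type MEFs. With NaCl at 2 h the p38α-/- arrays lay above the wild type ones by 0.75 ± 0.52 (adjusted p = 0.582, and 1.33 with adjusted p = 0.0798 with the scan day as a block), and within the shared scan batch the wild type array read 1.83 and the p38α-/- array 2.84.

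Klf6 with anisomycin, with the marked spots kept, differed by -0.90 with SB203580 (0.41 and -0.12 against 1.17 and 0.92, adjusted p = 1) and by 0.48 in p38α-/- MEFs (adjusted p = 0.574), so that the arms went opposite ways and neither passed. Klf11 with anisomycin differed from the wild type value by -0.28 with SB203580 (adjusted p = 1) and by -0.54 in p38α-/- MEFs (adjusted p = 0.508). At 8 h of NaCl, however, Klf11 read -0.05 and 0.30 with SB203580 against -1.37 and -1.10 alone, without overlap. This difference of 1.37 ± 0.30, or 2.58-fold, had an adjusted p of 0.0993 and passed with the replicate block (SE 0.28, adjusted p = 0.0407, 0.487% of all probes called). With SB203580 and no stress Klf11 read 1.02 and 0.31 against the pool. In the difference at 8 h, an effect of the inhibitor itself and a changed response to NaCl cannot be told apart. In the difference of responses at 8 h, given below, no member passed. Klf2 in p38α-/- MEFs with anisomycin was 0.64 above wild type MEFs (adjusted p = 0.616, and 1.41 with adjusted p = 0.054 with the scan day as a block, or 1.14 and 2.18 on the arrays of the shared scan batch), and with NaCl at 2 h its p38α-/- arrays were apart, at 0.80 and -1.32.

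**Figure D3:**
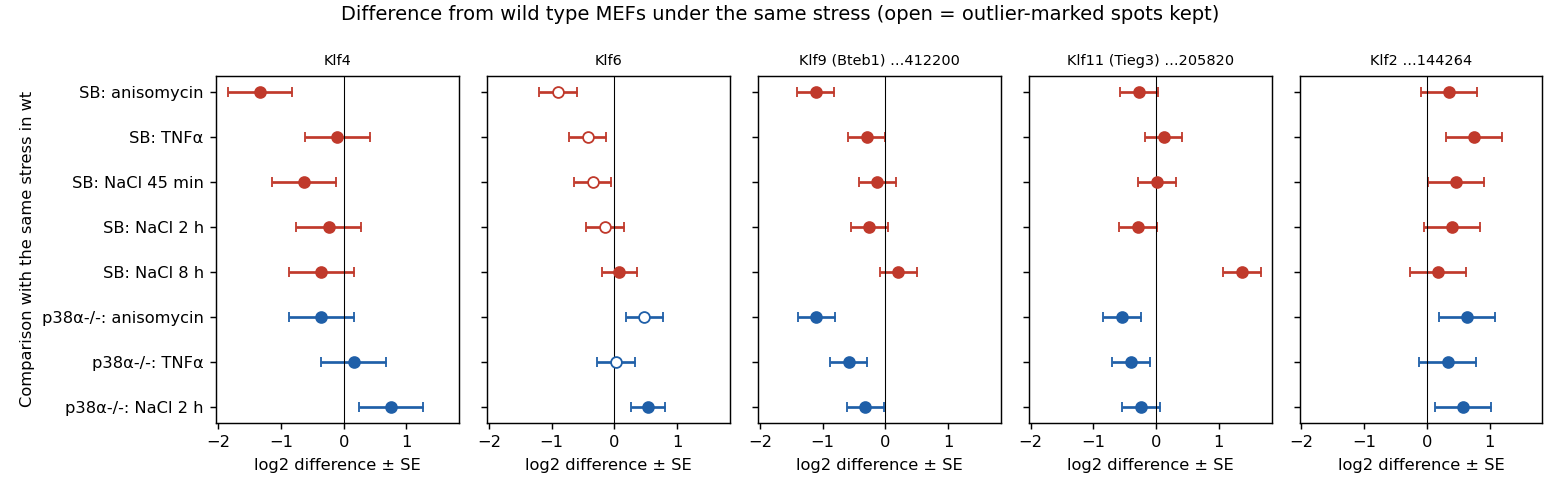
Log2 difference from wild type MEFs under the same stress ± SE (horizontal axis, n = 2 arrays per group) for the same 5 probes, with SB203580 in red for 5 stresses and p38α-/- MEFs in blue for 3, and open symbols where outlier-marked spots were kept. Klf9 with anisomycin is lower in both arms (-1.11 and -1.10), and Klf11 at 8 h of NaCl is higher with SB203580 (1.37). The other probes of Klf2, Klf9 and Klf11 are not shown. With SB203580 and no stress the Klf11 mean was already 0.67 above the pool.

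Set against the unstressed SB203580 cells, which were not matched to each stress for time in the inhibitor, the stresses changed few members. None of 9, 8 and 9 probes passed with anisomycin, TNFα and NaCl at 45 min (0.0126%, 0.0895% and 0.0746% of all probes), and none had an unadjusted p below 0.05 there. At 2 h of NaCl 1 of 10 passed (3.39%), Klf2, with a difference of -1.69 ± 0.45, or 3.22-fold lower (adjusted p = 0.0477, and 0.183 to 0.445 without SB203580 replicate 1 or without either NaCl array). At 8 h 2 of 11 passed (7.07%), Klf3 higher by 0.69 ± 0.13 (adjusted p = 0.00692) and Klf5 probe A_51_P507290 by 0.56 ± 0.12 (adjusted p = 0.0108). Klf3 missed the threshold without SB203580 replicate 1 (0.64, adjusted p = 0.0849) or NaCl replicate 2 (0.59, adjusted p = 0.0706), and Klf5 without 3 of the 4 arrays (adjusted p = 0.0657 to 0.0804). Klf4 was higher by 1.60 ± 0.52 at 2 h (adjusted p = 0.108) and by 1.28 at 8 h (adjusted p = 0.17), and both passed with the replicate block (adjusted p = 0.0052 and 0.0126). Klf6 at 2 h was higher by 1.43 ± 0.30 with marked spots kept (adjusted p = 0.0111).

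Against untreated p38α-/- MEFs none of 10 member probes passed with anisomycin (0.0569% of all probes, 3 members at an unadjusted p below 0.05), none of 9 with TNFα (0.0778%, 0 members) and 2 of 10 with NaCl at 2 h (1.61%). These were Klf4, higher by 2.22 ± 0.52 or 4.65-fold (adjusted p = 0.0363), and Klf6, higher by 1.56 ± 0.28 or 2.95-fold (adjusted p = 0.0246). For Klf4 all 4 arrays involved were above the pool, at 2.84 and 3.22 with NaCl and 1.34 and 0.29 without. Both missed the threshold without any 1 of the 4 arrays (Klf4 1.69 to 2.74, adjusted p = 0.0518 to 0.366, and Klf6 1.37 to 1.75, adjusted p = 0.0556 to 0.203).

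Last, the response in each arm was set against the wild type response, as an interaction in limma (arm minus wild type). The response in an arm is a difference of arrays and holds no dye bias, but the wild type response is the ratio to the pool, so that these differences hold the probe's dye bias with its sign turned and the bias cannot be told apart from a different response. With anisomycin 183 probes of the whole array passed here for SB203580, against 3 for the direct difference, and at 2 h of NaCl 576 against 0. No member passed with SB203580, of 8, 8, 8, 10 and 10 probes with anisomycin, TNFα and NaCl at 45 min, 2 h and 8 h (0.823%, 1.17%, 0.0213%, 2.45% and 0.584% of all probes), with 3, 0, 0, 2 and 0 at an unadjusted p below 0.05. None passed in p38α-/- MEFs, of 7, 8 and 10 with anisomycin, TNFα and NaCl at 2 h (0.644%, 0.630% and 0.0715%), with 1, 2 and 1 at an unadjusted p below 0.05. With anisomycin and SB203580 the response of Klf9 differed by -1.45 ± 0.36 (adjusted p = 0.0672) and that of Klf4 by -1.77 ± 0.63 (adjusted p = 0.161), and both passed with the replicate block (adjusted p = 0.0143 and 0.0197, 4.36% of all probes called), which leaves the dye bias in place. The direct differences above, without that bias, were -1.11 for Klf9 and -1.34 for Klf4 and passed neither with the block nor without. In p38α-/- MEFs the response of Klf9 to anisomycin differed by -1.16 ± 0.36 (adjusted p = 0.132), which also passed with the block (adjusted p = 0.0312, 3.82% of all probes called), and that of Klf4 by -1.17 (adjusted p = 0.376, and 0.0857 with the block).

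Among the other Klf and Sp factors on the array (15 genes, 22 probes), which bind the same GC-rich sequences, 1, 1, 1, 2 and 4 probes were called higher than the pool with anisomycin, TNFα and NaCl at 45 min, 2 h and 8 h, of 12, 12, 14, 19 and 13 tested, and none lower. Of all probes 13.4%, 13.2%, 11.8%, 12.5% and 20.6% were called in these groups, in either direction, and the same shares stand beside the lists that follow. The median log2 ratio of the tested probes lay between -0.01 and 0.11. Sp3, which activates or represses from GC boxes, was above the pool in all 5 stresses on 1 of its 2 probes, by 0.79 (adjusted p = 3.4e-05), 0.67 (adjusted p = 1.4e-04), 0.58 (adjusted p = 5.4e-04), 0.65 (adjusted p = 1.3e-04) and 0.58 (adjusted p = 1.2e-04), and also with SB203580 alone (0.70 and 0.35, adjusted p = 4.8e-04) and in untreated p38α-/- MEFs (0.27 and 0.28, adjusted p = 0.0412). This probe lay between 0.13 and 0.80 on all 30 arrays, stressed or not. Sp4 rose with NaCl at 2 h (0.79, adjusted p = 0.0333) and 8 h (0.85, adjusted p = 0.0134), and Sp1 (0.96, adjusted p = 0.0092) and Sp6 (0.50, adjusted p = 0.00998) at 8 h. For Sp4 and Sp6 this was 1 of 2 probes.

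Of the cofactors and ubiquitin ligases known to act with Klf proteins (14 names, 26 probes), 1, 1, 1, 1 and 3 were higher than the pool and 1, 0, 0, 1 and 2 lower in the same order, of 14, 16, 12, 23 and 18 tested, with medians between -0.14 and 0.05. Sin3b, which the Klf9, Klf11 and Klf13 class recruits, was above the pool in all 5 stresses on 1 of its 2 probes (0.54, 0.66, 0.49, 1.03 and 0.51), but also with SB203580 alone (0.84 and 0.74, adjusted p = 2.5e-04) and in untreated p38α-/- MEFs (0.69 and 0.61, adjusted p = 0.00147). The probe lay between 0.37 and 1.41 on all 30 arrays. Btrc, a ubiquitin ligase subunit, was below the pool on all 30 arrays (-1.61 to -0.02), past the threshold with anisomycin (-0.60, adjusted p = 0.0197), with NaCl at 2 h (-0.49, adjusted p = 0.0498) and at 8 h (-1.26, adjusted p = 2.1e-05). At 8 h Ctbp2, the partner of Klf3, was at 0.45, the deacetylase Hdac3 at -0.39 and the ligase Wwp1 at 0.30, all past the threshold. Ctbp2 and Wwp1 had further probes, which were not called higher.

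Of the factors and kinases known upstream of Klf genes (7 genes, 11 probes), 1, 1, 0, 1 and 2 probes were higher than the pool and 1, 2, 1, 0 and 3 lower, of 6, 5, 3, 6 and 8 tested, with medians between -0.20 and -0.09. Egr1, an immediate early factor, rose by 4.71 with anisomycin (adjusted p = 2.9e-08), 2.89 with TNFα (adjusted p = 5.9e-06) and 2.19 with NaCl at 2 h (adjusted p = 5.5e-05), and was at -1.27 at 8 h (adjusted p = 0.0019). On 1 of its 2 probes Mef2d was below the pool on all 30 arrays (-1.56 to -0.50). It was at -1.19 and -1.20 under anisomycin and TNFα, -0.89 at 8 h (adjusted p = 0.00161) and -0.92 in untreated p38α-/- MEFs (adjusted p = 0.00274). Map2k5, the kinase above Erk5, fell on 1 of its 2 probes with TNFα (-0.58) and NaCl at 45 min (-0.60). At 8 h both probes of Mapk7 (0.96 and 0.88) were higher, 1 of them above the pool on all 30 arrays (0.09 to 0.99), while Mef2c fell (-0.80, adjusted p = 1.1e-04).

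Among genes known as Klf targets (10 genes, 13 probes), 1, 1, 0, 0 and 2 probes were higher than the pool and 1, 1, 0, 0 and 1 lower, of 9, 9, 5, 11 and 9 tested, with medians between 0.04 and 0.13. Thbd, a known Klf2 target of endothelium, rose with anisomycin (0.73, adjusted p = 0.0172), TNFα (0.69, adjusted p = 0.0233) and at 8 h (0.87, adjusted p = 0.00296). Pdgfa fell on 1 of its 2 probes in each of anisomycin and TNFα (-0.32 and -0.28). At 8 h Ccnd1, which drives division, rose by 1.17 (adjusted p = 9.2e-04) and Cdkn1a, which halts it, fell by 0.48 (adjusted p = 0.0407). Without stress Ccnd1 read 0.13 and -0.20 with SB203580 and 1.61 and 0.99 in p38α-/- MEFs. For Thbd the values without stress were 0.35 and -0.06 with SB203580 and 0.54 and 0.37 in p38α-/- MEFs.

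The genes whose 15 group means ran most like those of the members, among 11865 probes measured on all arrays, were ranked by Pearson's r as a description, since the groups share the pool and the array batches. The brightest probe of each member was used. For Klf4 they were the neurotrophin gene Bdnf (0.933), the early response gene Ier5 (0.915) and the prostaglandin synthase gene Ptgs2 (0.890), and for Klf6 Gm1961 (0.868), Epha2 (0.866) and LOC380800 (0.849). Klf11 ran most like Zfp655 (0.900), Snx13 (0.878) and 1110028C15Rik (0.866), Klf3 like Usp36 (0.933), A330068P14Rik (0.910) and 2310002J15Rik (0.893), and Klf5 like Ppm1d (0.900), Arih1 (0.894) and Apg12l (0.887). For Klf7 they were 4921511H03Rik (0.911), A230059G12Rik (0.904) and Nbeal1 (0.896), and for Klf13 Ppox (0.940), Lgi2 (0.902) and Ptgs2 (0.875). The brightest probes here were A_51_P405280 of Klf7 (-0.61 to 0.10, outlier-marked on every array) and A_52_P281659 of Klf13 (-0.37 to 0.28). The rises of Klf7 and Klf13 described above were on their other probes, so these neighbours are not those of the probes that rose. For Klf9 and Klf2 the brightest probes were those that stayed between -0.73 and 0.23, and they ran like Serpinb9c (0.901), Nppb (0.899) and 4932408B21Rik (0.885), and D030072B18Rik (0.898), Hira (0.891) and 4933432G23Rik (0.877). Chosen after their values were seen, the other probes of these members were also ranked, and A_51_P144264 of Klf2 ran most like 2610027O18Rik (0.963), Fbxo46 (0.927) and Cbx2 (0.927), and A_51_P412200 of Klf9 like 1300002F13Rik (0.884), E2f2 (0.819) and Id4 (0.818).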

How the data were processed

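RNA of 30 cultures was amplified, labelled and hybridised to Agilent two-colour arrays. The authors quantified the spots with Feature Extraction, version 9.1 per the labels and 8.1.1.1 per the file headers, and deposited the spot intensity of each channel and a log10 ratio of Cy5 over Cy3 after spatial detrending and dye normalization (linear and LOWESS). The deposited log10 ratios were converted here to log2 ratios, control and feature-outlier spots were left out, and spots of a probe were averaged. The authors also deposited a value table of log2 ratios, whose columns correlated with the scanner ratios at 0.7789 to 0.956 and which served as an alternative. The doses and times of SB203580 follow the protocol, where the sample titles give other values.

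One mean per group was fitted over all 30 arrays with limma 3.58.1 (R 4.3.3), and 44 contrasts were tested with Benjamini-Hochberg adjustment over all probes measured on both arrays of each group, at an adjusted p below 0.05. Ratios to the pool were tested against 0, which leaves out the spread of the control. SE values are those of this fit. The named genes were all members, Mapk14, list genes called in a wild type stress, and for each member the 3 genes with the most similar group means. Members and lists were chosen with earlier results of these data known.

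Same-numbered arrays deviated together in 55 of 55 wild type pairs of groups (r 0.170 to 0.711) and 6 of 6 p38α-/- pairs (r 0.125 to 0.446), and in 5 of 44 pairs across genotypes. These pairs share groups and are not independent. In wild type MEFs the replicate number and the scan batch cannot be told apart, so a pairing of the samples was not shown. Blocked values use the number within genotype. Alternatives were this block, the scan day as a block, marked spots kept, further spot and probe filters, another background correction, fits of only the arrays compared, the 2.5-fold rule of the methods, the mean of probes, the value table and leaving out each array. The limma step was tested on simulated data. Scripts ran in Python 3.11.15.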

Additional observations from a re-analysis of the deposited data

Results flagged for a closer look

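Described here are 3 genes of the fixed lists that passed the limma test of the difference between responses, a p38-deficient arm against wild type MEFs. None of the Klf members passed it. Of the factors and kinases upstream of Klf genes, 1 of 4 tested probes also passed with SB203580 and NaCl at 2 h, with a higher response. That result is not among the values below. All values are the response of the arm minus that of wild type MEFs on the log2 scale, ± SE. The response of an arm is taken from its own unstressed cells, in which the probe's dye bias cancels, whereas the wild type response is the ratio to the pool, which keeps it. These differences therefore hold the dye bias with its sign turned, and it cannot be told apart from a different response. The direct differences between stressed groups, in which it cancels, are given beside them, and none of those passed.

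For Sp3, under anisomycin, the difference was -0.67 ± 0.15 with SB203580 (adjusted p = 0.0459) and -0.68 ± 0.15 in p38α-/- MEFs (adjusted p = 0.0473). It was -0.74 ± 0.15 under NaCl at 2 h with SB203580 (adjusted p = 0.0182) and -0.73 ± 0.15 under TNFα in p38α-/- MEFs (adjusted p = 0.0421). The Sp3 probe lay between 0.13 and 0.80 on all 30 arrays. Its direct differences from wild type MEFs were -0.15 (adjusted p = 1) and -0.41 (adjusted p = 0.145) with anisomycin in the 2 arms, -0.21 at 2 h with SB203580 (adjusted p = 1) and -0.45 with TNFα in p38α-/- MEFs (adjusted p = 0.184).

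For Mef2d under anisomycin the difference in p38α-/- MEFs was 1.40 ± 0.25 (adjusted p = 0.0442). This probe lay between -1.56 and -0.50 on all 30 arrays, its direct difference was 0.48 (adjusted p = 0.38), and its response within p38α-/- MEFs was 0.21 (adjusted p = 1). For Egr1 under anisomycin the differences were -3.11 ± 0.44 with SB203580 (adjusted p = 0.0116) and -2.09 ± 0.44 in p38α-/- MEFs (adjusted p = 0.0442). Egr1 ranged from -1.63 to 4.94 over the arrays and was at 0.92 with SB203580 alone. Its direct difference with SB203580 was -2.19 ± 0.36 (adjusted p = 0.108), and that in p38α-/- MEFs had an adjusted p of 0.0592.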

How the results depend on the processing

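With 2 arrays per group, precision rests on the spread shared over all groups, and the values cover technical and biological spread together. Signal over background limited 1 of the 16 probes. Counts below are of Klf probes called. Fits of only the arrays compared, with few degrees of freedom, called 0 in every comparison, and 67 of 116 single-probe values lost their call there. Leaving out 1 array kept direction and call in 301 of 404 single-probe values, lost the call in 99, gained it in 2 and turned the direction in 2: Klf2 (A_51_P144264) with NaCl at 2 h, p38α-/- minus wild type, became -0.48 without p38α-/- replicate 1 (up to 1.63 without another array), and Klf4, anisomycin minus NaCl at 45 min, became -0.03 without anisomycin replicate 1 (up to 1.28 without another array).

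The counts without 1 array ranged, against the pool in wild type MEFs, from 2 to 5 with anisomycin, 0 to 1 with TNFα, and with NaCl at 0 at 45 min, from 0 to 4 at 2 h and from 3 to 5 at 8 h. With SB203580 they ranged from 0 to 2 without stress, 0 to 2 with anisomycin, and stood at 0 with TNFα and 1 with NaCl at 45 min, 1 to 2 at 2 h and 0 to 2 at 8 h. In p38α-/- MEFs they were 0 without stress, 3 to 5 with anisomycin and 0 to 1 with TNFα. Against the arm's own unstressed cells they were 0 to 2 and 0 to 1 with SB203580 and NaCl at 2 h and 8 h, and 0 in p38α-/- MEFs at 2 h. The difference of responses with SB203580 gave 0 to 1 with anisomycin and 0 to 1 with NaCl at 2 h, and the comparisons within wild type MEFs 0 to 1 (2 h minus 45 min), 0 to 3 (8 h minus 2 h) and 0 to 1 (anisomycin minus NaCl).

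The replicate block kept 109 of 116 single-probe values on their side of the threshold and put 7 past it. It gave 7 with TNFα, 5 with SB203580 and NaCl at 45 min, 2 in untreated p38α-/- MEFs, 1 in each of SB203580 minus wild type at 8 h, p38α-/- minus wild type with anisomycin and the difference of those responses, 2 and 4 for the SB203580 responses at 2 h and 8 h, 2 for the difference of responses to anisomycin with SB203580, and 2 from 45 min to 2 h. It moved the other counts by 2 calls or fewer. With marked spots kept the counts were 10 with anisomycin, 5 with SB203580 alone, with anisomycin and with TNFα, 7 and 4 with SB203580 and NaCl at 45 min and 2 h, 4 in untreated p38α-/- MEFs, 2 for the difference of responses to anisomycin with SB203580 and 1 for anisomycin minus NaCl. Marked spots kept and the block together, chosen after seeing the data, gave 10, 8 and 6 with anisomycin, TNFα and NaCl at 45 min, 5, 7, 5, 9 and 4 with SB203580 alone, with anisomycin, TNFα and NaCl at 45 min and 2 h, 5 in untreated and TNFα-treated p38α-/- MEFs, 3 and 4 for the SB203580 responses at 2 h and 8 h, 3 and 1 for the differences of responses to anisomycin and TNFα, and 2 from 45 min to 2 h.

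The authors' value table gave 8 with anisomycin, 5, 6 and 4 with SB203580 and anisomycin, NaCl at 45 min and at 2 h, 5 in untreated and TNFα-treated p38α-/- MEFs, 2 for the SB203580 response at 2 h and 1 for the difference of responses to anisomycin. Another background correction gave 2 in untreated p38α-/- MEFs and 1 in each anisomycin comparison of p38α-/- with wild type MEFs and of the responses. Probes above background everywhere gave 1 with SB203580 minus wild type at 8 h, 1 with p38α-/- minus wild type and 1 for the difference of responses to anisomycin, and 2 for the SB203580 response at 2 h, and leaving out background outliers too gave 1 with SB203580 and NaCl at 2 h and 0 for that response. The mean of probes gave 0 with TNFα, SB203580 alone, untreated p38α-/- MEFs, the SB203580 response at 2 h and 2 h minus 45 min, and 1 with SB203580 and anisomycin or TNFα, for p38α-/- minus wild type and the difference of responses with anisomycin, for 8 h minus 2 h and for anisomycin minus TNFα or NaCl.

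At 2.5-fold in place of the test, 0 passed with TNFα and NaCl at 45 min, 1 at 2 h and 1 at 8 h, 0 with SB203580 alone or with NaCl at 45 min, 1 in each other SB203580 group, and 0, 3, 0 and 2 in p38α-/- MEFs untreated and with anisomycin, TNFα and NaCl. It gave 1 for SB203580 minus wild type with anisomycin and at 8 h, 2 and 0 for the SB203580 responses at 2 h and 8 h, 1 for the p38α-/- response and 2 for the difference of responses to anisomycin, and 1 for 8 h minus 2 h. The scan day as a block put none of the 7 single-probe values it could be fitted for past the threshold, but for p38α-/- minus wild type it moved Klf2 (A_51_P144264) from 0.64 to 1.41 with anisomycin and from 0.58 to 1.35 with NaCl at 2 h, and Klf4 from 0.75 to 1.33 with NaCl at 2 h.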
